A study of Solanum lycopersicum with 27 samples.

Results

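In tomato fruit, 96 of 34075 genes changed by less than a set limit in wild type (WT) between 25 and 34 days post anthesis (dpa). They were lower in the mutant dml2-3 at both ages. These genes were chosen by their measured values. A gene was taken when its group mean differed by less than 2-fold between the WT ages, and when the dml2-3 mean was lower than WT by 2-fold or more at 25 dpa and again at 34 dpa. All 3 conditions were read as differences of log2(mean FPKM + 1), where FPKM counts the sequenced fragments of a gene per unit of its length and of the library's mapped total. Every WT and dml2-3 value below therefore describes how the genes were chosen and carries no test.

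RNA of fruits of the cultivar Ailsa Craig, grown without treatment, was sequenced in 27 libraries that fell into 9 groups of 3. Both ages were taken for WT, dml2-3 and the double mutant rin/tdr4-1, and 34 dpa is labelled the breaker stage, when the first ripening colour shows. For rin-1, tdr4-1 and nor-1 there was 1 age, 34 dpa. The labels give neither the kind of lesion in each allele, nor whether the rin allele of the double mutant is rin-1, nor whether replicates came from separate plants, so that the p-values cover the spread among these libraries, which may be technical. The rule used the 12 WT and dml2-3 libraries, which left 15 libraries of 5 groups that had no part in choosing the genes.

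DML2 is a DNA demethylase, an enzyme that cuts 5-methylcytosine out of DNA so that an unmethylated base can take its place. Methylation near a gene's start often goes with low transcription, and in tomato fruit loss of DML2 is known for blocking ripening. Among the transcription factors that act in ripening, RIN and TDR4 belong to the MADS-box family and NOR to the NAC family. DNA methylation was not measured in these libraries, and the identifiers of the table could not be paired with gene names, so that the genes below are given by identifier without a role. In bulk fruit RNA, fewer cells of a type and less RNA per cell cannot be told apart.

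The FPKM columns summed to between 863193 and 1122755, and the depth of each library is unknown. In 8 of the 9 groups, libraries of a group correlated across genes at 0.981 or more. The exception was replicate 3 of the younger dml2-3 fruits, at 0.917 and 0.916 with its partners, whose own correlation was 0.99. That library is one of those the rule averaged. Leaving it out gave 119 genes in place of 96, and 87 genes stood on both lists.

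The 96 genes spanned a wide range of abundance in WT. At 25 dpa their WT means ran from 1.3 to 968 FPKM around a median of 25.0, and at 34 dpa from 1.29 to 688 FPKM around a median of 22.3. In dml2-3 the medians were 6.25 FPKM at 25 dpa and 3.62 FPKM at 34 dpa. Added up, the 96 genes held 6108.9 to 6307.5 FPKM in the WT libraries at 25 dpa and 6190.3 to 6739.3 FPKM at 34 dpa. In the dml2-3 libraries the sums were 1961.4 to 2574.2 FPKM at 25 dpa and 1711.6 to 1815.1 FPKM at 34 dpa. The highest dml2-3 sum at each age thus stayed far under the lowest WT sum, a separation that the rule favours. Single genes did not all separate in this way. The dml2-3 libraries all lay under the WT libraries in 85 of the 96 genes at 25 dpa and in 89 at 34 dpa, and overlapped them in the rest. The rule favours these counts too, and shares of all genes were not taken for them.

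**Figure D1:**
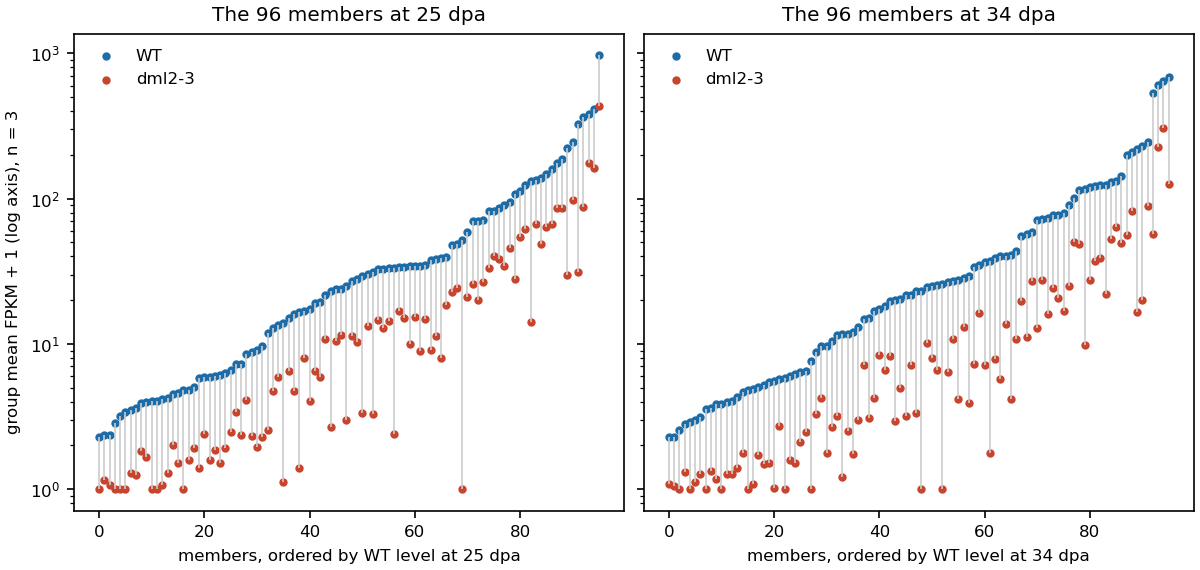
Group mean FPKM + 1 on a log axis for each of the 96 genes (x axis, ordered by WT level) in WT and dml2-3 at 25 dpa (left) and 34 dpa (right), 3 libraries per mean, with a grey line joining the means of a gene. The distance between the points is set in part by the rule, and most dml2-3 points lie well above the floor of the axis, which stands for 0 FPKM.

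Loss of expression was complete in few of the genes, so that "silenced" describes only some of them. The median gene kept 27.3% of its WT level in dml2-3 at 25 dpa and 17.8% at 34 dpa. Of the 96 genes, 52 were between 2-fold and 4-fold lower at both ages, 17 were lower by 4-fold or more at both ages, and 4 by 8-fold or more. In 43 genes dml2-3 still held 5 FPKM or more at both ages. Only 7 genes were listed at 0 in all 6 dml2-3 libraries, and 5 of these were under 5 FPKM in both WT groups. Just 1 of the 7 was above 0 in every library outside dml2-3. In 5 of the 7, at least 1 WT group also had 2 of its 3 libraries at 0, so their zeros in dml2-3 say little about silencing. All 19 genes under 5 FPKM in both WT groups were under 1 FPKM in both dml2-3 groups. Of the 61 genes at 10 FPKM or more in both WT groups, 3 were under 1 FPKM in both dml2-3 groups. On a scale with 1 added to each value, a gene must lose a larger share of its FPKM to pass the same limit the lower its WT level, so the rule itself ties depth of loss in part to low abundance.

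Genes lower by 2-fold or more in dml2-3 were 7.23% of the 18906 genes kept for testing at 25 dpa and 7.08% at 34 dpa, with all 96 genes lower by construction. The median log2 difference of the 96 genes was -1.45 at 25 dpa and -1.83 at 34 dpa, and the difference was larger at 34 dpa in 67 of them. The median of all genes kept was 0.0 at 25 dpa and 0.42 at 34 dpa. Between the WT ages the 96 genes had a median difference of 0.0, with 48 higher and 48 lower at 34 dpa, while the median of all genes kept was -0.51. An unchanged FPKM as deposited thus lay above the change of the median gene. The WT differences of the 96 genes ran from -0.99 to 0.96, and 53 were within 0.5. Within dml2-3, 12 of them were 2-fold or more lower at 34 dpa than at 25 dpa and 2 were higher, against 5.49% and 1.29% of all genes kept. The median change with age in dml2-3 was -0.14 over the 96 genes and -0.10 over all genes kept.

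The limits cut through a continuous range. At 25 dpa the gene just inside the limit differed from WT by -1.006 and the gene just outside by -0.993 on the log2 scale, and at 34 dpa these values were -1.005 and -0.994. For the WT change they were 0.994 and 1.019. Within 0.1 of the limit at 25 dpa, 16 genes lay inside and 20 outside. Of the 96 genes, 57 met the rule in all 12 lists made with 1 of the WT or dml2-3 libraries left out.

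The WT libraries of some genes were uneven. In 16 genes the WT replicates at 25 dpa lay 2-fold or more apart on the log2(FPKM + 1) scale, and in 13 genes at 34 dpa. The dml2-3 replicates did so in 26 genes at 25 dpa and in 7 at 34 dpa. For each of the other mutant groups the count was 4 to 7. Shares of all genes were not taken here. In 5 genes at least 1 WT group had 2 of its 3 libraries at 0. One gene reached 1 FPKM in only 2 libraries of all 27, with 11.49 FPKM as its highest value, and was not tested, which left 95 genes. Solyc02g031780.1 shows the same unevenness at a higher level. It was at 58.2, 0 and 19.6 FPKM in the WT libraries at 25 dpa, at 13.0, 43.8 and 10 FPKM in WT at 34 dpa, and at 0, 30.9 and 0 FPKM in dml2-3 at 25 dpa.

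The largest mean difference among genes at 10 FPKM or more in WT belonged to Solyc02g031960.3, on chromosome 2 by its identifier. Its WT libraries held 54.2, 62.8 and 35.4 FPKM at 25 dpa and 32.5, 27.1 and 15.4 FPKM at 34 dpa, and it was listed at 0 in all 6 dml2-3 libraries. No other group was at 0. The double mutant held 53.5, 51.8 and 51.2 FPKM at 25 dpa and 11.1, 6.0 and 8.08 FPKM at 34 dpa. At 34 dpa, rin-1 held 17.0, 13.2 and 14.3 FPKM, tdr4-1 36.9, 29.2 and 30.8 FPKM, and nor-1 4.55, 3.43 and 5.46 FPKM. In order of mean level at 34 dpa, tdr4-1 came first and WT second, and the ranges of these overlapped, as did those of WT and rin-1. The double mutant and nor-1 followed without overlap.

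Next came Solyc05g053550.3, at 138, 126 and 128 FPKM in WT at 25 dpa and 232, 254 and 170 FPKM in WT at 34 dpa. In dml2-3 it held 12.69, 13.98 and 12.81 FPKM at 25 dpa and 14.1, 17.5 and 15.3 FPKM at 34 dpa. Its level in the double mutant depended on age, with 236, 200 and 226 FPKM at 25 dpa, above every WT library of that age, and 15.1, 21.3 and 16.6 FPKM at 34 dpa, overlapping dml2-3. At 34 dpa rin-1 held 39.0, 35.2 and 30.3 FPKM, nor-1 21.8, 21.7 and 24.8 FPKM, and tdr4-1 196, 194 and 188 FPKM, within the WT range.

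**Figure D2:**
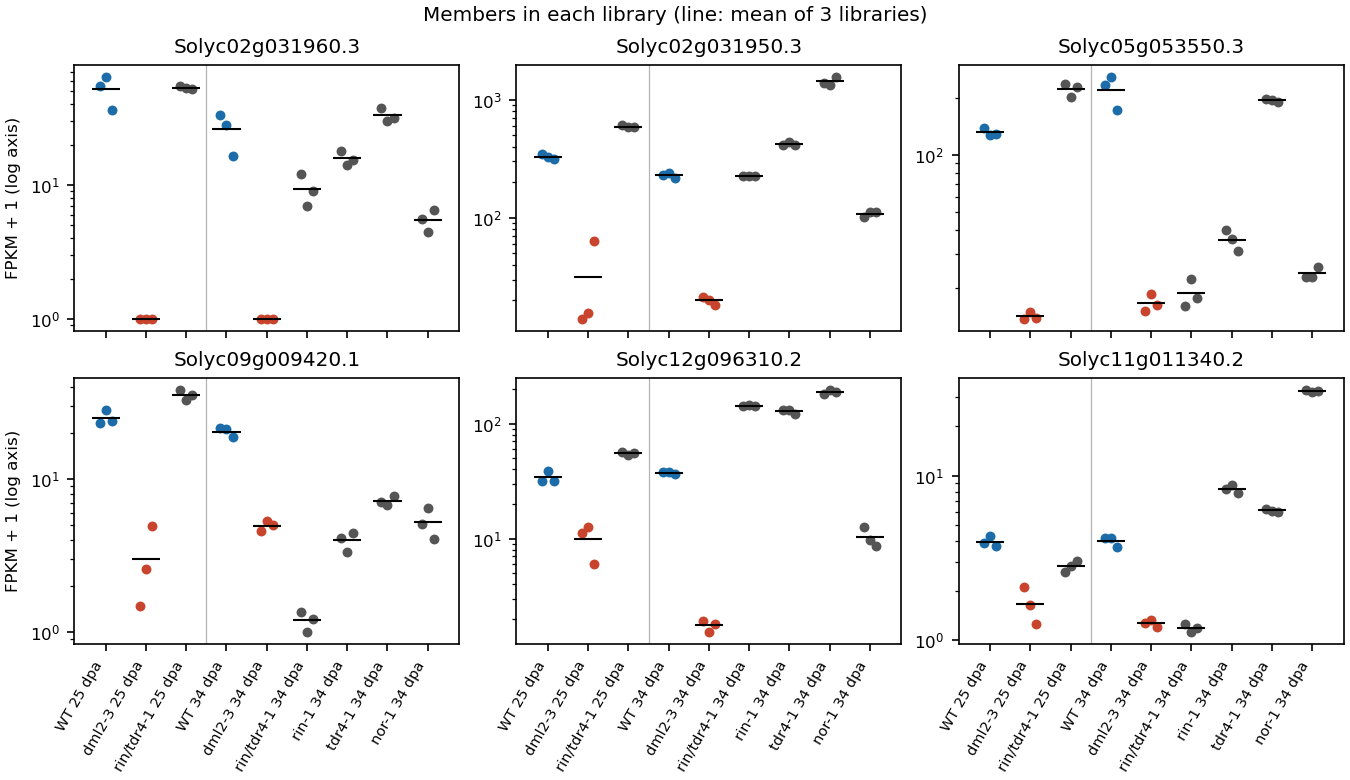
FPKM + 1 on a log axis in each of the 27 libraries for 6 of the 96 genes, with groups on the x axis, 3 points per group and a line at the group mean (WT blue, dml2-3 red, other mutants grey, and a vertical line between 25 and 34 dpa). Solyc02g031960.3 is at 0 FPKM in the 6 dml2-3 libraries and above 3 FPKM in every other library, while the other 5 genes differ in how the remaining mutants stand against WT.

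Whether these genes change with fruit age when RIN and TDR4 are both affected was tested in the double mutant, whose libraries the rule did not use. Most of them fell. Of the 95 genes tested, 57 (60%) were lower at 34 dpa than at 25 dpa and 8 (8.42%) were higher (limma, Benjamini-Hochberg adjusted p under 0.05 over 18906 genes), against 30.1% lower and 28.6% higher among all genes tested. Of the falls, 36 were 2-fold or more, and of the rises, 4, where 7.81% and 5.41% of all genes tested were. The median log2 change of the 95 genes was -0.80 and that of all genes tested -0.01, and neither moved after division by size factors. Of the 95 genes, 89 reached 1 FPKM in a library of this comparison, and 93 or 94 did in each comparison below. With the untested gene, 3 of the 96 genes reached 1 FPKM in fewer than 3 libraries outside WT. Those tested among them passed the filter only with the help of WT libraries. The summed level of the 96 genes was 5949.8 ± 67.4 FPKM at 25 dpa and 3318.8 ± 40.8 FPKM at 34 dpa (mean ± SD, n = 3 here and for each mean below). By the rule, the WT change of each gene over the same ages was under 1 in log2(mean FPKM + 1). On plain FPKM a few genes changed by slightly more than 2-fold or, at low levels, by more. The difference between the genotypes in the change with age was not tested, since the WT libraries chose the genes.

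Solyc10g079690.2 had the largest fall with age in the double mutant. It was at 61.3, 62.0 and 63.2 FPKM at 25 dpa and at 0, 0.59 and 0.69 FPKM at 34 dpa (log2 difference -5.51, SE 0.60, limma adjusted p = 1.13e-07). The 3 older libraries all lay under 1 FPKM. Its WT libraries were uneven, at 2.56, 18.9 and 27.5 FPKM at 25 dpa. Solyc09g009420.1 fell from 37.0, 31.8 and 34.3 FPKM to 0.35, 0 and 0.22 FPKM, a change of -4.90 (SE 0.26, adjusted p = 2.52e-12). In WT this gene held 20.2 to 27.4 FPKM in 5 of the 6 libraries and 17.8 FPKM in the other, and in dml2-3 it stayed between 0.48 and 4.3 FPKM.

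Rises with age in the double mutant were few and smaller. Solyc07g005775.1 rose from 35.1, 26.5 and 36.6 FPKM to 81.3, 89.9 and 102 FPKM (log2 difference 1.46, SE 0.32, limma adjusted p = 0.00051). Solyc12g096310.2 rose from 55.5, 51.9 and 54.9 FPKM to 140, 144 and 143 FPKM, a change of 1.38 (SE 0.18, adjusted p = 1.2e-06). The groups did not overlap for either gene. Both were far lower in dml2-3 at 34 dpa, with Solyc07g005775.1 at 3.86, 3.37 and 1.5 FPKM and Solyc12g096310.2 at 0.94, 0.54 and 0.82 FPKM. For these genes dml2-3 and the double mutant at 34 dpa thus lay on opposite sides of WT, which held 24.3 to 33.3 FPKM of the first and 35.6 to 36.7 FPKM of the second.

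At 34 dpa the mutants were compared with tdr4-1 as the common reference, since its libraries did not choose the genes. These 3 comparisons share the tdr4-1 libraries and are not independent of each other. The double mutant had 62 of 95 genes (65.3%) lower and 13 (13.7%) higher than tdr4-1 by limma, against 14.9% lower and 64.5% higher among all genes tested. At 2-fold or more these were 41 lower and 7 higher, against 6.46% and 28.6%. The median log2 difference was -0.87, and that of all genes tested 0.57, which size factors took to 0.03. With size factors the median of the 95 genes was -1.45, and 75 were lower and 6 higher, against 35.7% lower and 36.1% higher among all genes.

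In rin-1, 46 genes (48.4%) were lower than in tdr4-1 and 14 (14.7%) higher, against 14.4% and 51.3% of all genes tested (limma, adjusted p under 0.05). Past 2-fold were 25 lower and 1 higher, against 3.82% and 17.5%. The median difference was -0.40, with 0.30 over all genes. After division by size factors 58 were lower and 4 higher, against 31.4% and 32.4% of all genes, with medians of -0.74 and 0.01. In nor-1, 38 genes (40%) were lower and 21 (22.1%) higher, against 19% and 34.6% of all genes, with medians of -0.37 and 0.11. Past 2-fold were 28 lower and 13 higher, against 3.72% and 9.27%, and with size factors 46 were lower and 20 higher, against 27.7% and 28.2%. In all 3 mutants 28 genes were lower than in tdr4-1 and 3 were higher, against 5.4% and 23.4% of all genes tested. A further 21 genes were called lower in at least 1 of these mutants and higher in another, and 12 genes were called in none, against 14.7% and 8.6% of all genes tested.

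The double mutant and tdr4-1 differed most for Solyc10g079690.2, which tdr4-1 held at 47.4, 71.9 and 47.3 FPKM (log2 difference -5.32, SE 0.60, limma adjusted p = 5.11e-08). Solyc08g083050.1, which had the highest WT mean of the 96 genes at 34 dpa, was at 15.2, 13.3 and 16.2 FPKM in the double mutant and at 398, 368 and 403 FPKM in tdr4-1, a difference of -4.62 (SE 0.12, adjusted p = 3.72e-18). WT held 624 to 740 FPKM of it at 34 dpa and dml2-3 122 to 133 FPKM, so the double mutant lay lower than dml2-3. Already at 25 dpa the double mutant had 52.7, 48.5 and 50.2 FPKM against 356 to 374 FPKM in WT. On the other side, Solyc07g005775.1 was higher in the double mutant than in tdr4-1 by 2.51 (SE 0.32, adjusted p = 2.81e-07). So was the uneven Solyc02g031780.1, by 5.02 with a wide error (SE 1.71, adjusted p = 0.0108). It held 49.0, 34.2 and 82.2 FPKM in the double mutant and 3.24, 0 and 0 FPKM in tdr4-1.

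Against tdr4-1, rin-1 was lowest for Solyc05g005320.1 and Solyc11g011330.2. The first was at 2.75, 2.18 and 1.53 FPKM in rin-1 and at 20.8, 17.9 and 24.1 FPKM in tdr4-1 (log2 difference -2.81, SE 0.24, limma adjusted p = 1.25e-09). Its level in tdr4-1 lay within the 17.5 to 29.3 FPKM of WT at 34 dpa. The second was at 1.41, 1.49 and 1.5 FPKM in rin-1 and at 15.9, 13.0 and 15.5 FPKM in tdr4-1, a difference of -2.68 (SE 0.14, adjusted p = 5.94e-13). Here rin-1 lay just below the 1.85 to 2.17 FPKM of WT at 34 dpa, and tdr4-1 stood above every other group. The largest values higher in rin-1, among called genes at 5 FPKM or more, were under 2-fold, at 0.84 for Solyc10g008670.3 (SE 0.23, adjusted p = 0.00358) and 0.80 for Solyc07g053140.3 (SE 0.15, adjusted p = 9.82e-05). The first call ended with a pseudocount of 0.1 (1.03, limma adjusted p = 0.11) and with size factors (0.54, adjusted p = 0.052), and its adjusted p ran from 0.000104 to 0.11 over the alternatives.

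Solyc07g053140.3 separated rin-1 from the double mutant. It was at 132, 140 and 135 FPKM in rin-1, at 78.1, 78.7 and 75.7 FPKM in tdr4-1 and at 9.76, 8.8 and 9.79 FPKM in the double mutant at 34 dpa. The double mutant thus overlapped the 10.03, 9.63 and 10.74 FPKM of dml2-3 at that age, while rin-1, tdr4-1 and nor-1 all lay above the 51.7 to 58.5 FPKM of WT.

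In nor-1 the changes went both ways. Solyc12g096310.2 was at 11.6, 8.67 and 7.56 FPKM in nor-1 and at 180, 193 and 188 FPKM in tdr4-1 (log2 difference -4.21, SE 0.18, limma adjusted p = 2.18e-14). Apart from dml2-3, nor-1 was the only genotype in which all libraries of this gene lay under those of WT at 34 dpa. Solyc02g031950.3 was at 100, 110 and 110 FPKM in nor-1 and at 1389, 1338 and 1542 FPKM in tdr4-1, a difference of -3.72 (SE 0.32, adjusted p = 2.14e-09). WT held 216 to 240 FPKM of it at 34 dpa, so that tdr4-1 stood above WT and nor-1 below. Solyc11g011340.2 was higher in nor-1, at 32.0, 31.5 and 31.7 FPKM against 5.3, 5.14 and 5.04 FPKM in tdr4-1, a difference of 2.41 (SE 0.12, adjusted p = 4.1e-13). No library of another group reached 8 FPKM of this gene. Solyc04g071060.3 was higher in nor-1 by 2.04 (SE 0.38, adjusted p = 0.00012), at 10.3 ± 0.97 FPKM against 1.76 ± 0.499 FPKM. WT held 3.91 to 7.83 FPKM of this gene at 34 dpa, so that nor-1 stood above WT and tdr4-1 below. Against WT the log2 differences were 0.81 in nor-1 and -1.21 in tdr4-1.

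The double mutant was also tested against rin-1 at 34 dpa. Here 48 of 95 genes (50.5%) were lower and 24 (25.3%) higher by limma, against 20.7% lower and 48.9% higher among all genes tested. At 2-fold or more 23 were lower and 13 higher, against 8.87% and 13.4%. The median log2 difference was -0.45, with 0.26 over all genes, and with size factors these were -0.70 and 0.01. With size factors 56 genes were lower and 19 higher, against 31.9% and 33.1% of all genes. The genes named for the largest lower values were Solyc10g008650.2 and Solyc10g079690.2. Solyc10g008650.2 was at 13.95, 0 and 17.55 FPKM in the double mutant and at 118, 94.9 and 98.1 FPKM in rin-1, a difference of -3.997 (SE 0.97, adjusted p = 0.000985). Its dml2-3 libraries at 34 dpa were as uneven, at 0, 0 and 26.4 FPKM. Solyc10g079690.2 was at 20.8, 19.6 and 21.9 FPKM in rin-1, a difference of -3.96 (SE 0.60, adjusted p = 5.09e-06). In the other direction, Solyc07g005775.1 was higher in the double mutant by 3.00 (SE 0.32, adjusted p = 3.16e-08) and Solyc07g042480.3 by 2.18 (SE 0.26, adjusted p = 2.13e-07). The latter was at 8.79, 9.82 and 9.69 FPKM in the double mutant and at 1.67, 1.27 and 0.99 FPKM in rin-1.

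**Figure D3:**
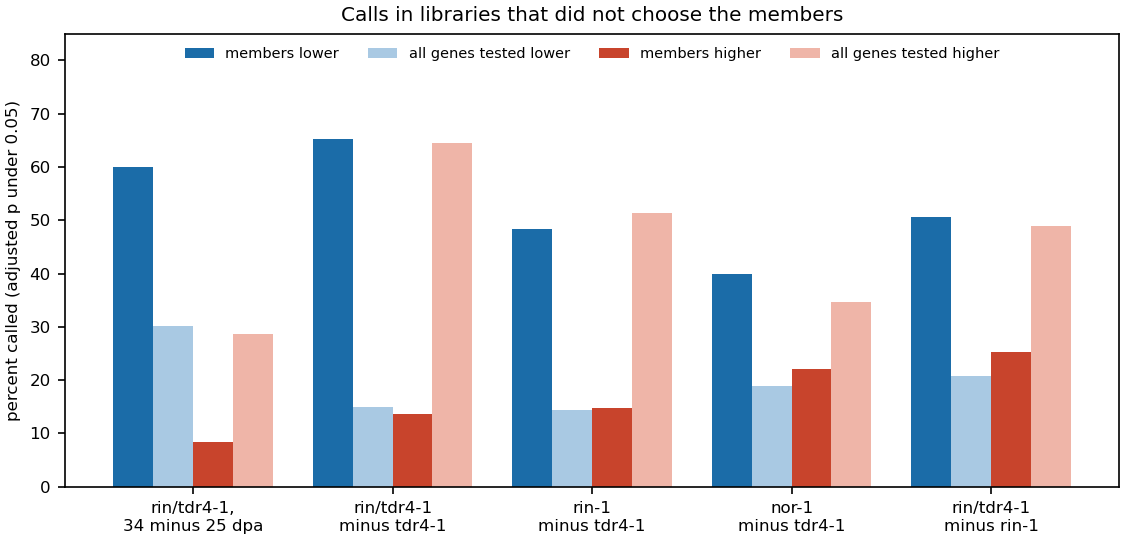
Percent of the 95 tested genes (dark bars) and of all genes tested (light bars) that were lower (blue) or higher (red) at adjusted p under 0.05 in the 5 comparisons among the 15 libraries that did not choose the genes. In each comparison the members lower exceed the members higher, from 60% against 8.42% for age in the double mutant to 40% against 22.1% for nor-1 against tdr4-1, on FPKM as deposited.

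Set beside WT of the same age, the other mutants showed a graded picture. The WT libraries chose the genes, which favours lower values in any other group, and are shared by all the comparisons at 34 dpa, so these values are descriptions without a test. At 25 dpa the double mutant was 2-fold or more lower than WT in 21 of 96 genes and higher in 5, where 5.05% of all genes kept were lower and 1.78% higher. The median log2 difference there was -0.04, with quartiles of -0.82 and 0.26. At 34 dpa it was lower in 52 genes and higher in 4, against 5.43% lower and 26.8% higher among all genes, with a median of -1.08. Size factors took the median of all genes in that comparison from 0.50 to 0.03 and that of the 96 genes to -1.63. In 15 genes all double mutant libraries lay above all WT libraries at 25 dpa and below them all at 34 dpa, a pattern shown by 5.2% of all genes kept. The 15 include the run of 4 neighbouring genes on chromosome 2 described below, which may not be separate observations. The opposite pattern was shown by none of the 96 genes and by 15% of all genes kept.

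In the single mutants fewer of the genes were 2-fold lower than WT. Of the 96 genes, 33 were 2-fold or more lower in rin-1 and 4 higher, against 5.42% and 19.7% of all genes kept, with a median log2 difference of -0.68. In nor-1, 35 were lower and 11 higher, against 5.74% and 13.1%, with a median of -0.56 and a range of -3.34 to 3.03. In tdr4-1, 12 were lower and 7 higher, against 1.25% and 3.99%, with a median of -0.26. The median of all genes kept was 0.23 in rin-1, 0.04 in nor-1 and -0.07 in tdr4-1. With size factors 46 of the 96 genes were 2-fold or more lower in rin-1, 37 in nor-1 and 12 in tdr4-1. Their medians were then -0.97, -0.62 and -0.18, and shares of all genes were not taken with size factors. The tdr4-1 libraries held 6168.1 to 6714.0 FPKM over the 96 genes, a range that overlaps that of WT at 34 dpa. Solyc02g031950.3 carried this overlap, and without it the sums were 4830.0 to 5172.4 FPKM in tdr4-1 and 5974.3 to 6498.9 FPKM in WT. With all 96 genes the sums were 4011.4 to 4333.0 FPKM in rin-1 and 4568.8 to 4591.0 FPKM in nor-1, between WT and the 3283.4 to 3363.4 FPKM of the double mutant.

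**Figure D4:**
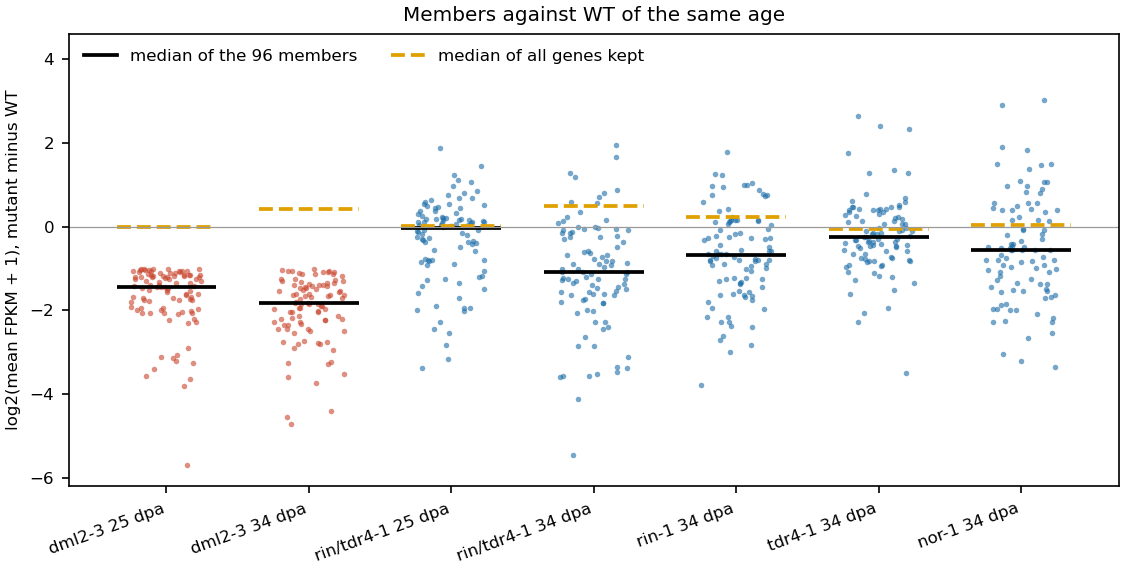
Difference of log2(mean FPKM + 1) between each mutant group and WT of the same age for the 96 genes (points), with their median (black line) and the median of all genes kept (dashed line). The dml2-3 points (red) lie at or below -1 because the rule put them there, while the medians of the other mutants (blue) run from -0.04 in the double mutant at 25 dpa to -1.08 in the same genotype at 34 dpa.

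Individual genes followed several patterns across the mutants. In 15 genes the double mutant, rin-1 and nor-1 were all 2-fold or more lower than WT at 34 dpa, a pattern shown by 1.93% of all genes kept. In 24 genes none of the 4 mutants sampled beside dml2-3 at 34 dpa was 2-fold lower, and in 23 this held for the double mutant at 25 dpa as well, against 89.8% and 85.5% of all genes kept. In 43 genes both dml2-3 means were lower than the means of all 7 other groups, against 2.45% of all genes kept, where the rule itself had put dml2-3 under WT of the same age. The dml2-3 level at 34 dpa was not the lowest for every gene. The double mutant was at or below dml2-3 at 34 dpa in 24 genes, rin-1 in 13, nor-1 in 12 and tdr4-1 in 3. At 25 dpa the double mutant was at or below dml2-3 in 10 genes. Shares of all genes kept were not taken for these counts, so whether they differ from those of other genes was not tested.

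**Figure D5:**
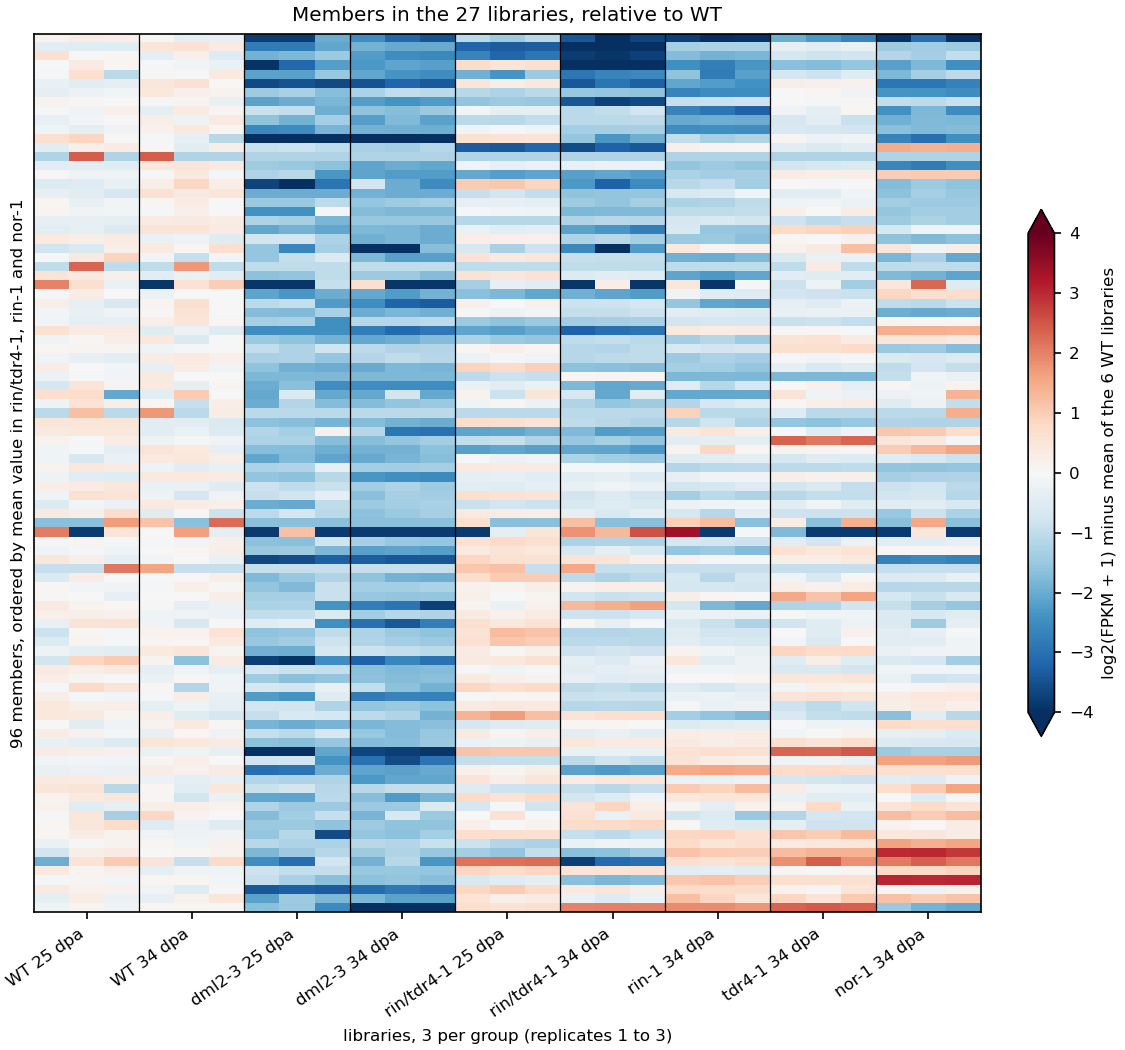
The 96 genes (rows, ordered by their mean in the rin/tdr4-1, rin-1 and nor-1 libraries) in the 27 libraries (columns, 3 per group), coloured by log2(FPKM + 1) minus the mean of the 6 WT libraries of that gene, with the colour held at -4 and 4. The dml2-3 columns are blue in nearly all rows, while rows with isolated dark cells are the genes with uneven replicates. Of the other groups, the double mutant at 34 dpa had the most genes 2-fold or more lower than WT, 52 of the 96. That count uses group means against WT of the same age, not the mean of 6 WT libraries that sets the colours.

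Replicate 3 of dml2-3 at 25 dpa differed from its partners in both directions. Against the mean of replicates 1 and 2, 12 of the 96 genes were 2-fold or more higher in it and 9 were lower, where 5.88% and 7.19% of all genes kept were. The median difference over the 96 genes was 0.01. Solyc02g031950.3 was among the higher genes, at 12.9 and 14.8 FPKM in replicates 1 and 2 and at 63.2 FPKM in replicate 3, still under the 311 to 346 FPKM of WT.

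By their identifiers, which carry the chromosome number and run along the chromosome, the 96 genes were spread over all 12 chromosomes. Chromosome 2 held 14, chromosome 10 held 12 and chromosome 4 held 4. Of the genes kept on these chromosomes, those that met the rule were 0.685%, 0.9% and 0.25%, against 0.502% of all genes kept. Chromosome 9, which held 10, was at 0.734%, above chromosome 2. Neighbouring identifiers both met the rule in 3 places, with 8 genes in all. One place holds Solyc02g031950.3 and Solyc02g031960.3, both described above, and another Solyc11g011330.2 and Solyc11g011340.2. The latter pair parted in the other mutants, the first being highest in tdr4-1 and the second in nor-1. The third place is a run of 4 genes on chromosome 2. Their means ran from 69.1 to 242.7 FPKM in WT and from 24.9 to 97.2 FPKM in dml2-3 at 25 dpa, and from 76.4 to 245.3 FPKM in WT and from 19.8 to 88.2 FPKM in dml2-3 at 34 dpa. In the double mutant they ran from 135.4 to 391.4 FPKM at 25 dpa and from 32.5 to 103.3 FPKM at 34 dpa. Across the 27 libraries the 6 pairs of this run correlated at 0.953 to 0.994 on the log2(FPKM + 1) scale, a description over libraries that share genotypes. Whether these neighbours are near-identical copies among which fragments were split was not tested, so they may not be separate observations.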

How the data were processed

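The authors deposited 1 table of FPKM values with 1 column per library, tied to the samples by column name. Per the submitters' processing notes, the tools were Trimmomatic, STAR 2.5.4b, RSEM and DESeq2, with no role or order stated. Genome build and annotation were not stated there or in the labels. Ratios of low values between libraries shared no common step (at most 3.4% at 1 ratio), so read numbers stay unknown and a count test did not apply. None of the 34075 identifiers was found among the 41476 genes of the RefSeq table (assembly SLM_r2.1), and no sequences were available to print.

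The 18906 genes that reached 1 FPKM in 3 or more libraries were fitted as log2(FPKM + 1), with 1 mean per group over all 27 libraries. The fit used limma 3.58.1 under R 4.3.3, moderating the variances along a trend with level. P-values were adjusted by Benjamini-Hochberg over all genes fitted, and an adjusted p under 0.05 was called. A log2 difference on this scale understates the change of low genes. Differences from WT and dml2-3 were taken between group means without a test. The fit was first tested on data simulated for 1 comparison, the double mutant against tdr4-1, with few genes changed. It called 66% of changes of 0.5 in log2 and 98% of changes of 2, with 11 false among 185 calls. In the measured data 64.5% of genes were called higher and 14.9% lower there, a setting that the simulation did not cover.

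Identifiers are printed for the 2 genes with the largest mean dml2-3 difference at 10 FPKM or more in both WT groups. They are also printed for the 2 largest rises and falls in each tested comparison among called genes at 5 FPKM or more without overlap of libraries. The rule, the genes and the tests were chosen with earlier results of these data known. Alternatives were a pseudocount of 0.1, no filter, size factors, TPM, fits to the 2 groups compared, a replicate block, and leaving out libraries. The replicate numbers do not pair the libraries.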

Additional observations from a re-analysis of the deposited data

Results flagged for a closer look

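In 4 of the genes named above, every double mutant library lay above every WT library at 25 dpa and below every WT library at 34 dpa, and the difference between the ages was not tested. The log2 difference from WT of Solyc05g053550.3 was 0.75 at 25 dpa and -3.56 at 34 dpa. Solyc07g053140.3 went from 0.45 to -2.45. For Solyc09g009420.1 the differences were 0.49 and -4.11, and for Solyc10g079690.2, whose WT libraries are uneven, 1.87 and -3.56. They are among 15 of the 96 genes with this pattern, which 5.2% of all genes kept also showed, and the WT libraries that chose the genes enter each of these values. The 15 also include the run of 4 neighbouring genes on chromosome 2, which may not be separate observations.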

How the results depend on the processing

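The number of genes that met the rule was 196 with a pseudocount of 0.1 (90 shared with the 96) and 17 with a 4-fold limit. It was 118 with size factors (72 shared), 118 with medians of replicates (84 shared) and 96 with TPM (85 shared), and with 1 library left out it ran from 92 to 119, the latter without replicate 3 of dml2-3 at 25 dpa. Size factors changed 13 genes higher to 6 for the double mutant against tdr4-1, 14 to 4 for rin-1 against tdr4-1, and, at 2-fold against WT at 34 dpa, 4 to 2 for the double mutant and 4 to 1 for rin-1. The last was 7 with a pseudocount of 0.1. A fit to the double mutant alone called 13 genes higher with age in place of 8. At 25 dpa the double mutant was 2-fold higher than WT in 3 to 7 genes with 1 library left out, and in 3 without its replicate 2 or without replicate 1 of WT. The other 227 of 237 alternatives of counts lay within 1.5 times of the reported count. Of 260 alternatives for named genes in tested comparisons, 258 kept call and direction, and 0 reversed. For the dml2-3 minus WT difference of Solyc05g053550.3 at 34 dpa, size factors gave -4.22 in place of -3.72, an alternative chosen after seeing the data. Same-numbered libraries did not deviate together (correlations of -0.083 to 0.074). With the replicate block the double mutant had 57 genes lower and 8 higher with age, and 63 lower and 13 higher than tdr4-1. The block gave 47 lower and 14 higher in rin-1 and 38 lower and 21 higher in nor-1 against tdr4-1, and 48 lower and 24 higher for the double mutant against rin-1. Depth is unknown, so genes at a few FPKM rest on an unknown number of fragments.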
